A study of Mus musculus with 69 samples.

Results

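The genes described here are 9 members of the Eph and ephrin family: the receptor genes Epha4, Epha5, Epha7, Epha10, Ephb2 and Ephb6 and the ligand genes Efna1, Efna3 and Efna4. They were chosen by gene name from the 9930 complete gene records of the hippocampal count table, with earlier results of these data known. Their RNA was read in the hippocampus of 69 male mice, 1 library per animal. The animals formed 8 groups by Cdh13 genotype (wildtype or knockout), rearing (control or maternally separated) and age (postnatal day 22, P22, or postnatal day 66, P66).

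The control wildtype groups held 8 animals at P22 and 7 at P66, the separated wildtype groups 11 and 10, the control knockout groups 9 and 7, and the separated knockout groups 10 and 7. Separation meant 3 h away from the dam on each day between P1 and P14, at a random time of the light phase, and control litters were only handled. The animals came from 2 breeding cohorts, and every group held animals of both. Cdh13 encodes cadherin 13 (T-cadherin), a cell adhesion molecule held in the membrane by a lipid anchor. How the knockout allele was made, the strain and the tissues that lack the gene were not stated in the sources used here. The Cdh13 row was not analysed here, and the genotype labels therefore carry no check on that gene. The hippocampus was cut from slices of frozen brain about 1 mm thick, so the samples hold all of its cell types. Separation was applied to litters and the labels name no litter, so p-values measure the spread between animals, some of which may be littermates.

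Eph receptors are receptor tyrosine kinases that bind ephrins on the surface of neighbouring cells. Ephrin-A ligands are attached to the membrane by a lipid anchor and mostly bind EphA receptors, while ephrin-B ligands span the membrane and mostly bind EphB receptors. Signals pass into both the receptor-bearing and the ligand-bearing cell. In the hippocampus the family is known for guiding axons, for shaping dendritic spines and for exchange between neurons and astrocytes. Binding often leads to local loss of adhesion and retraction of the process.

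In short, 6 of the 9 genes differed between the ages, all by less than 1.24-fold. The share that differed was near that among all genes tested, so it does not set this family apart. Epha10, Ephb6, Efna1 and Efna3 were higher at P66, and Ephb2 and Efna4 were lower. The calls were not equally firm: Efna1 and Efna4 were called in neither breeding cohort alone, and Efna4 lost its call in 16 of 69 fits that left out 1 library. Efna3 was called in cohort 2 but not in cohort 1. It went to -0.045 with oligodendrocyte and choroid plexus marker scores as covariates, but the oligodendrocyte markers themselves differed strongly between the ages. None of the 9 genes passed the test for genotype, for separation, for their interaction or for a change of either effect with age. Within groups the genes did not vary as 1 block: Epha4, Epha5 and Epha7 varied together from library to library, while Ephb6 and Efna3 varied the other way, most clearly against Epha5 and Epha7. Part of this pattern went with a GC score, made from how a library's gene levels followed the G and C content of the transcripts. Once that score was removed, Epha4 went from r = -0.27 with Ephb6 and -0.22 with Efna3 to -0.02 with both. Epha5 and Epha7 stayed negative, at -0.43 and -0.39 with Ephb6 and at -0.28 and -0.21 with Efna3.

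The promoters of the 3 receptor genes with the largest age differences are shown here because Epha10 and Ephb6 rose together and Ephb2 fell. Each run is 300 bases from RefSeq (GRCm38.p6), read 5′ to 3′ on the gene's strand, from 250 bases before the RefSeq transcription start to 50 bases after it, with every CpG dinucleotide in capitals. The Epha10 run lies at chr4:124881535-124881834 on the plus strand, the Ephb6 run at chr6:41605261-41605560 on the plus strand, and the Ephb2 run at chr4:136835963-136836262 on the minus strand.
Epha10: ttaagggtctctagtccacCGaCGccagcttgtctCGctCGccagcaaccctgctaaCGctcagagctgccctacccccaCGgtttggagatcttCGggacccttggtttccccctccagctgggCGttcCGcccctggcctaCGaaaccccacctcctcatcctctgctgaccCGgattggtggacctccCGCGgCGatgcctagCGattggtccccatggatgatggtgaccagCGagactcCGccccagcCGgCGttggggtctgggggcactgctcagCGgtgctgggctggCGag
Ephb6: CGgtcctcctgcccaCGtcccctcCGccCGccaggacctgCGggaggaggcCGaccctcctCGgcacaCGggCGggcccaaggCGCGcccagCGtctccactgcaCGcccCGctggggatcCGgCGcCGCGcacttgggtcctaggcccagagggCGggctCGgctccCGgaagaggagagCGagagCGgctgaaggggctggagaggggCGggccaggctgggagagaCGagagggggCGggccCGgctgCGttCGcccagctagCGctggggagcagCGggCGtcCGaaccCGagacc
Ephb2: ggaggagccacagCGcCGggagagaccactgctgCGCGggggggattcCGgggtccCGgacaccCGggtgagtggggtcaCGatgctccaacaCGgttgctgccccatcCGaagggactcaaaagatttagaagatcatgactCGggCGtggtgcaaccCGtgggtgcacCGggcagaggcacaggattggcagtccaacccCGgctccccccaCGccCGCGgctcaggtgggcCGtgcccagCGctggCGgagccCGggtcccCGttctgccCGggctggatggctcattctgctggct
The runs held 21 CpG dinucleotides for Epha10, 34 for Ephb6 and 24 for Ephb2. Across the 9518 promoters of the same length matched to genes of the table, the median was 13 and the 90th percentile was 33. All 9 genes matched the RefSeq promoters, with 12 starts in all, and the windows of the 2 Epha7 starts largely overlap. The 12 windows held 55.7% to 76.3% G and C, against a median of 56.7% over all promoters. The shares below are not matched for this. A GC box, searched as gggcgg on both strands, was present in 10 of the 12 promoters and in 47.0% of all promoters. The 2 windows without these letters were those of Ephb2 and Efna4, which are also the genes that were lower at P66; this was seen after the values were known and describes 9 genes only. The core of the neuron-restrictive silencer element, searched as cagcacc on both strands, was present in 2 of the 12, those of Epha10 and 1 start of Efna1, and in 7.3% of all. The E-box cacgtg, the cAMP response element tgacgtca and the TATA box tataaa were found in none of the 12 and in 7.5%, 2.2% and 12.6% of all promoters.

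The libraries held 11283370 to 16365465 counts over the gene records, with a median of 13278074. The table as held ends on chromosome 8, so these totals cover that part of the genome and not the whole library. Marker genes of the dentate gyrus (Prox1, C1ql2) and of the CA fields (Neurod6, Fibcd1) were present in every library, as the tissue label states. Choroid plexus markers varied widely, from a summed 53.14 to 512.4 CPM, and 6 libraries lay more than 2 log2 units from the median of that marker score. CPM are read counts per M counts of the library over the genes held that passed the filter on low counts. No 2 libraries of a group agreed within sampling noise: over 272 pairs, chi-square per degree of freedom was 4.47 to 88.0. Neither cohort stood apart in any single gene: 0 of 7131 genes (0.0%) differed between the cohorts at an adjusted p under 0.05 in edgeR, and the cohort difference of the 9 genes ran from -0.05 to 0.09 on the log2 scale.

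Levels can be compared between genes only per length, here as CPM per kilobase of all annotated exons of the gene. On that scale Epha4, a receptor that accepts ephrins of both classes and is known from hippocampal spines, was the highest, at 109.5 ± 11.7 CPM per kilobase (SD, n = 69). Efna3, the gene of ephrin-A3, a ligand known from astrocytes facing spines, followed at 60.6 ± 6.84. Ephb6, whose protein has a kinase domain without catalytic activity, stood at 47.96 ± 6.2. Epha7, a receptor known from axon guidance and dendrite growth, stood at 36.35 ± 5.61, and Epha5, a receptor for ephrin-A ligands, at 18.55 ± 3.41. Epha10, the other receptor without kinase activity, reached 16.34 ± 2.25. Ephb2, an EphB receptor known for its link to NMDA-type glutamate receptors at synapses, reached 6.99 ± 1.01. Efna1, the gene of ephrin-A1, was at 6.11 ± 0.935. Efna4, the gene of ephrin-A4, was the lowest, at 1.26 ± 0.304. The order can depend on the length used. The annotated exons of Epha5 cover 16739 bases and its longest transcript 7328, and those of Epha7 cover 9884 and 6746. In bulk tissue, fewer cells of a type and less RNA per cell cannot be told apart.

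Each gene kept its level within narrow limits over the 8 groups. The highest group mean exceeded the lowest by 1.12-fold for Epha4 and by 1.36-fold for Ephb2 and Efna4, with the other genes between. When the 8 groups were put in order, no neighbouring pair of groups of any gene lay further apart than the larger of their SDs. Sorting brings similar groups side by side, so this says little about groups further apart in the order. Of the 28 pairs of groups, 3 did not overlap for Epha10, 3 for Ephb2 and 1 for Ephb6, and all pairs overlapped for the other 6 genes. Of all genes tested, 16% had at least 1 such pair and 8.37% had at least 3. The plot of levels by group shows every animal.

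**Figure D1:**
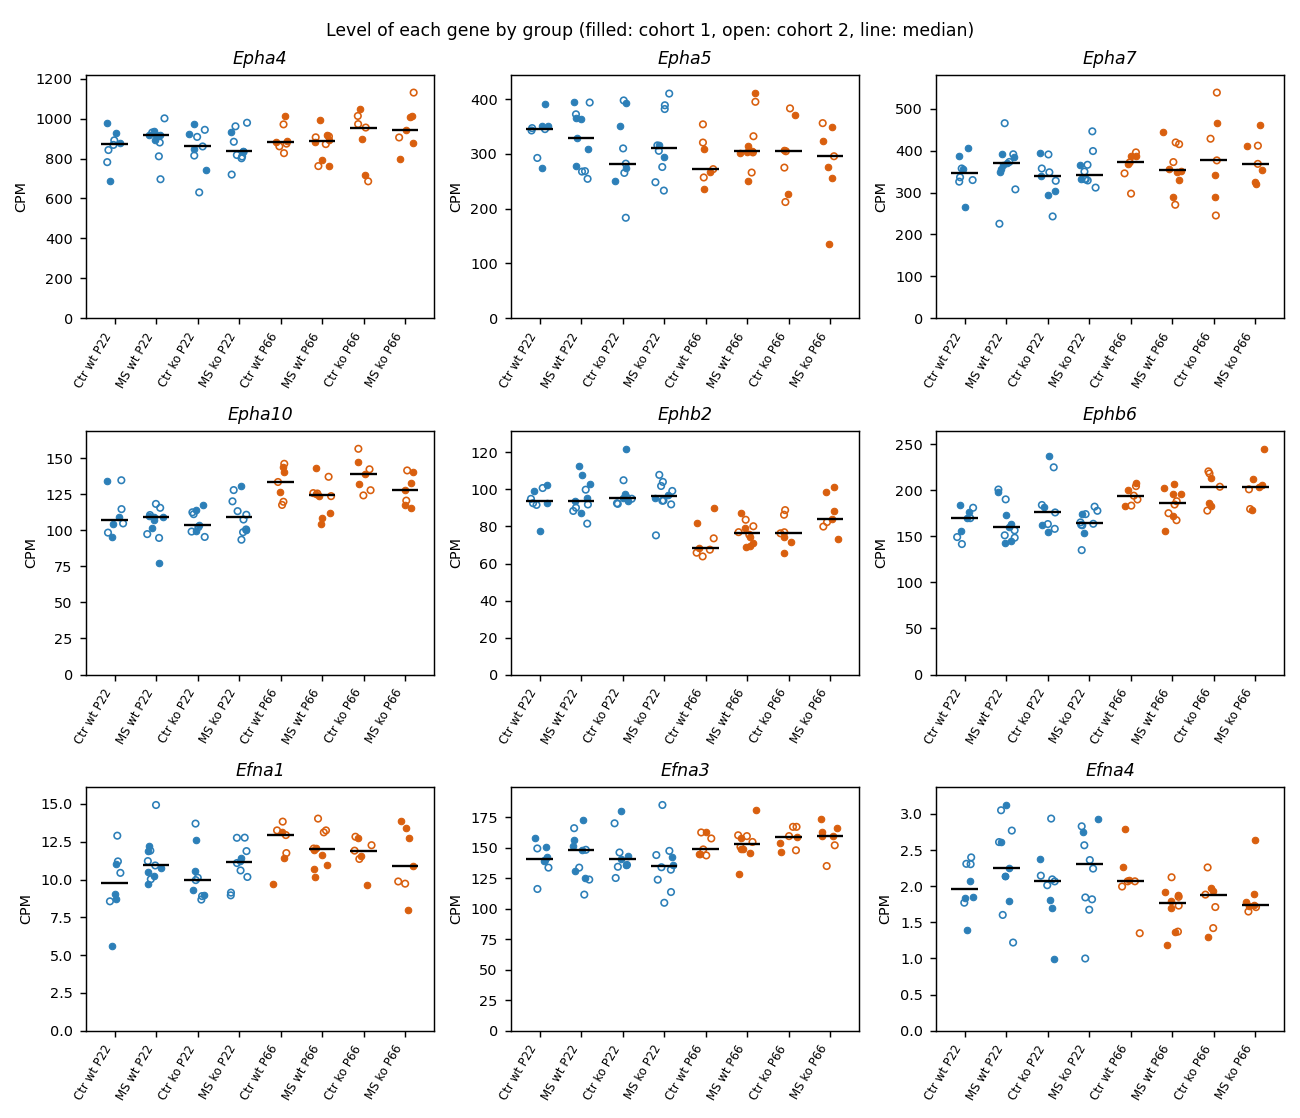
Level of each gene in CPM (y axis, from 0) by group (x axis; Ctr is control rearing, MS is maternal separation, wt is wildtype, ko is knockout), with 1 point per animal, blue for P22 and orange for P66, filled for cohort 1 and open for cohort 2, and a line at the group median. The orange points sit higher than the blue ones for Epha10 and Ephb6 and lower for Ephb2, with overlap.

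The first comparison asked how each gene differed between weaning age and adulthood. In 1 edgeR fit of all 69 libraries with cohort as a covariate, the P66 minus P22 difference was averaged over the 4 combinations of genotype and rearing. P-values come from edgeR's quasi-likelihood test with Benjamini-Hochberg adjustment over all 7131 genes tested, and a gene was called at an adjusted p under 0.05. All 9 genes passed the filter on low counts in every fit. Of the 9, 4 were called higher and 2 lower, against 52% of all genes tested, of which 26.2% were higher and 25.8% lower. The share of called genes among the 9 was thus near that of the whole table. The median log2 fold change of the 9 genes was 0.08, and that of all genes was 0.009.

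Among the kinase-active receptors, Ephb2 fell. Its level ran from 75.21 through a median of 95.15 to 122.0 CPM at P22 and from 63.83 through 76.88 to 101.3 CPM at P66. The ages overlapped, yet 13 P66 animals lay below every P22 animal, and 29 of 31 lay below the P22 median of their own genotype and rearing group. The log2 fold change was -0.31 ± 0.0342 (SE; adjusted p = 8.57e-12).

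Epha4 ran from 630.4 through 882.0 to 1001.0 CPM at P22 and from 685.8 through 895.4 to 1130.0 CPM at P66. The ranges overlapped almost entirely, although 6 P66 animals exceeded every P22 animal. Its log2 difference was 0.06 (95% interval -0.02 to 0.13; adjusted p = 0.207). Epha7 ran from 225.5 through 352.7 to 465.3 CPM at P22 and from 245.2 through 368.3 to 538.3 CPM at P66, and 19 of 31 P66 animals lay above the P22 median of their group. Its log2 difference was 0.08 (95% interval -0.02 to 0.19; adjusted p = 0.203).

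Epha5 ran from 183.4 through 316.0 to 409.9 CPM at P22 and from 136.1 through 303.7 to 411.7 CPM at P66. The spread was wide at both ages, and 20 of 31 P66 animals lay below the P22 median of their group. Its log2 difference of -0.12 (95% interval -0.25 to 0.02) did not pass the test (adjusted p = 0.143). It did pass in edgeR with the GC score of each library as a covariate, described further on, at -0.205 (adjusted p = 5.25e-05). It also passed in edgeR with dentate gyrus and CA field marker scores as covariates, at -0.162 (adjusted p = 0.0337).

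Both receptors without kinase activity rose. Epha10 ran from 76.99 through 108.2 to 134.6 CPM at P22 and from 104.4 through 127.7 to 156.4 CPM at P66. The ages overlapped, with 11 P66 animals above every P22 animal and 29 of 31 above the P22 median of their group. The log2 fold change was 0.26 ± 0.0357 (adjusted p = 4.84e-09).

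Ephb6 ran from 135.0 through 164.3 to 237.7 CPM at P22 and from 156.2 through 195.6 to 245.0 CPM at P66. The overlap was wider than for Epha10, and the control knockout animals 4 of cohort 1 and 43 of cohort 2 were the highest at P22, at 237.7 and 224.9 CPM. Still, 30 of 31 P66 animals lay above the P22 median of their group. The log2 fold change was 0.19 ± 0.0365 (adjusted p = 7.03e-06).

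The 3 ligand genes lie in 1 stretch of 66.3 kb on chromosome 3, at chr3:89271733-89338028 in GRCm38, all on the minus strand, with 32.8 kb between Efna1 and Efna3 and 10.4 kb between Efna3 and Efna4. No other gene of the table lies between them. They did not move in the same direction with age.

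Efna3 ran from 104.8 through 140.0 to 184.9 CPM at P22 and from 128.1 through 157.5 to 181.2 CPM at P66. No P66 animal exceeded all P22 animals, but 28 of 31 lay above the P22 median of their group. Its log2 fold change was 0.12 ± 0.0364 (adjusted p = 0.00338), and with choroid plexus and oligodendrocyte marker scores as covariates it turned to -0.045. Of its exonic length, 14.13% overlaps the antisense gene Gm15998, and no source used here says whether reads were counted by strand, so reads of the pair cannot be told apart.

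Efna1 ran from 5.598 through 10.6 to 14.93 CPM at P22 and from 7.999 through 11.97 to 14.03 CPM at P66. The P66 range lay inside the P22 range, and 23 of 31 P66 animals lay above the P22 median of their group. Its log2 fold change was 0.17 ± 0.0516 (adjusted p = 0.00552). In edgeR on single cohorts it did not pass, at 0.153 in cohort 1 (adjusted p = 0.178) and 0.118 in cohort 2 (adjusted p = 0.163).

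Efna4 was read with 13 to 44 counts per library. It ran from 0.994 through 2.141 to 3.123 CPM at P22 and from 1.19 through 1.853 to 2.793 CPM at P66, and 23 of 31 P66 animals lay below the P22 median of their group. The control wildtype group was the exception, with 6 of 7 P66 animals above its P22 median. The log2 fold change was -0.20 ± 0.0849 (adjusted p = 0.0394). Leaving out single libraries moved the adjusted p between 0.0163 and 0.0682 and ended the call in 16 of 69 cases. Of its exonic length, 10.51% overlaps the antisense gene 4731419I09Rik.

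**Figure D2:**
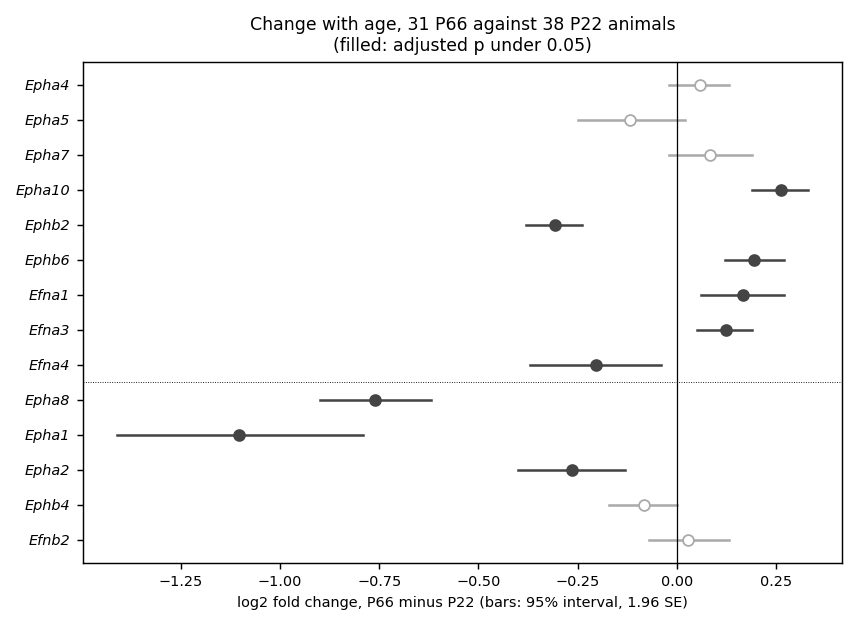
Log2 fold change between the ages (x axis, P66 minus P22; bars are 95% intervals) of the 9 genes and, below the dotted line, of the 5 other Eph and ephrin genes of the table; filled points passed the test. Ephb2 at -0.31 and Epha10 at 0.26 are the outermost of the 9 genes.

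Within single genotype and rearing groups, the share of all genes called between the ages was 18.9% in control wildtype, 30.8% in separated wildtype, 28.1% in control knockout and 19.2% in separated knockout animals. Epha10 was called in all 4, at 0.24, 0.23, 0.38 and 0.20 in that order. Ephb2 was called in 3, at -0.37, -0.33 and -0.36, and was at -0.18 in separated knockout animals (adjusted p = 0.0624). Ephb6 was called in control wildtype (0.23) and separated knockout animals (0.27), and stood at 0.14 and 0.13 in the other two groups. Efna1 was called in control wildtype animals alone (0.33), and Efna4 in separated wildtype animals alone (-0.46, against 0.06 in control wildtype). In an edgeR fit of only the control wildtype libraries, Efna1 was at 0.320 and was not called (adjusted p = 0.069). Efna3, at 0.10 to 0.17, was called in none.

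These differences between groups did not pass their own tests. The change of the genotype effect with age called 0 of 9 genes, against 0.0% of all genes, and the change of the separation effect with age called 0 of 9, against 0.0421% of all genes. At an unadjusted p under 0.05 in edgeR both counts were also 0 of 9, against 2.15% and 6.73% of all genes. DESeq2 and limma-voom called 0 of 9 in both. The largest of these terms were those for age by separation of Efna4, at -0.30 (95% interval -0.63 to 0.03; adjusted p = 0.786), and of Efna1, at -0.19 (95% interval -0.39 to 0.02; adjusted p = 0.774). The term for age by genotype by separation also called 0 of 9 genes in edgeR, DESeq2 and limma-voom, against 0.014% of all genes in edgeR, with 0 of 9 at an unadjusted p under 0.05. It was 0.44 for Efna4 (95% interval -0.22 to 1.11), -0.33 for Epha5 (95% interval -0.86 to 0.20) and 0.23 for Ephb6 (95% interval -0.06 to 0.51).

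Markers of other cell types moved between the ages in the same libraries. All 5 oligodendrocyte markers tested were lower at P66, and their summed level ran from 1041 through 1530 to 2604 CPM at P22 and from 428 through 573.4 to 1152 CPM at P66. All 3 astrocyte markers were lower (median log2 fold change -0.15), 4 of 6 markers of newborn neurons and stem cells were lower and 1 higher, 3 of 6 dentate gyrus markers were higher and 1 lower, and none of the 5 microglia or 6 choroid plexus markers was called. With choroid plexus and oligodendrocyte scores as covariates, 14.9% of all genes were called between the ages, against 52% without them. The oligodendrocyte markers nearly separated the ages, so this fit cannot tell an age difference from one that goes with the score. In that fit Ephb2 (-0.291, adjusted p = 0.0021), Epha10 (0.235, adjusted p = 0.0311) and Efna1 (0.391, adjusted p = 0.00578) were called. Ephb6 kept its size without the call (0.204, adjusted p = 0.0678), Efna3 was at -0.045 (adjusted p = 0.757) and Efna4 at -0.412 (adjusted p = 0.123). The part of cell composition in the age differences was not tested beyond these fits.

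Each cohort was also fitted alone, with 30.2% of all genes called between the ages in cohort 1 and 38.5% in cohort 2. Ephb2 was at -0.325 in cohort 1 and -0.294 in cohort 2, Epha10 at 0.250 and 0.273, and Ephb6 at 0.202 and 0.176, all called in both. Efna3 was called in cohort 2 alone (0.153, against 0.080 in cohort 1), and Efna1 and Efna4 were called in neither.

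Of the 13 further Eph and ephrin genes listed, 5 were in the table as held, which ends on chromosome 8. Absence from it is therefore no measure of expression. Of the 5, 3 fell with age and none rose, against 25.8% lower and 26.2% higher among all genes. Epha8, an EphA receptor gene, had a median of 15.49 CPM at P22 and 8.941 CPM at P66, with all 31 P66 animals below the P22 median of their group (log2 fold change -0.76 ± 0.072; adjusted p = 2.66e-14). Epha1 fell by 1.10 and Epha2 by 0.26 on the log2 scale, both at low levels of 1.11 and 3.5 CPM (medians at P22). Epha1 had 1 to 37 counts per library, and 6.01% of its exonic length overlaps Zyx, a protein-coding gene on the opposite strand. Ephb4 (-0.08, adjusted p = 0.0992) and the ephrin-B ligand gene Efnb2 (0.03, adjusted p = 0.669) did not pass. None of the 5 was called for genotype, separation or their interaction at either age, where Epha1 did not pass the filter at P66.

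Of 57 genes listed for proteins that act with Eph receptors or ephrins, 27 were in the table as held and were tested. Of the 27, 3 were higher and 11 lower at P66, against 26.2% and 25.8% of all genes. The list's median log2 fold change was -0.03, against 0.009 over all genes. The largest falls were those of Chn2 (-0.76), the gene of a chimaerin that inactivates Rac, of Inppl1 (-0.56), a lipid phosphatase gene, of Vav2 (-0.40), a guanine nucleotide exchange factor gene, and of Rgs3 (-0.33), a regulator of G protein signalling. The 3 that rose were Vav3 (0.25), a relative of Vav2, Sdcbp (0.14), the gene of the scaffold syntenin, and Src (0.07), a cytoplasmic tyrosine kinase gene. None of the 27 was called for genotype, separation or their interaction at either age.

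The next comparisons asked what the loss of Cdh13 and early separation did to these genes. Each age was fitted separately, with 7036 genes tested at P22 and 7001 at P66. For genotype, 0 of the 9 genes were called at P22, against 0.0% of all genes, and 0 of 9 at P66, against 0.0571%. For separation, 0 of 9 were called at P22, against 0.0%, and 0 of 9 at P66, against 0.371%. For the interaction, 0 of 9 were called at either age, against 0.0% at both. At an unadjusted p under 0.05 in edgeR there were 0 of 9 for genotype and 1 for separation at P22. There were 1 for genotype and 2 for separation at P66, and 0 for both interactions. The shares of all genes under that limit were 4.11% for genotype and 3.08% for separation at P22. They were 8.36% and 12.2% at P66, and 8.47% and 4.53% for the interactions at P22 and P66. DESeq2 and limma-voom also called 0 of 9 in each of these 6 comparisons.

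Ephb2 had the lowest unadjusted p for genotype at P66. Control wildtype animals ran from 63.83 through 68.11 to 89.73 CPM and control knockout animals from 65.66 through 76.32 to 88.85 CPM. Separated wildtype animals ran from 68.75 through 76.24 to 87.04 CPM and separated knockout animals from 73.25 through 84.1 to 101.3 CPM. The groups overlapped, with 12 of 14 knockout animals above the wildtype median of their rearing group and 16 of 17 separated animals above the control median of their genotype. The knockout minus wildtype log2 difference was 0.12 (95% interval 0.02 to 0.23; unadjusted p = 0.0241, adjusted p = 0.505), and it was 0.025 in cohort 1 and 0.168 in cohort 2. The separated minus control difference was 0.11 (95% interval 0.00 to 0.22; unadjusted p = 0.0495, adjusted p = 0.407). At P22 the same differences were 0.05 (95% interval -0.03 to 0.14) and 0.00 (95% interval -0.08 to 0.08).

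Epha10 had the lowest unadjusted p for separation at P66. Control wildtype animals ran from 117.5 through 133.4 to 146.0 CPM and separated wildtype animals from 104.4 through 124.5 to 142.8 CPM. Control knockout animals ran from 124.1 through 139.2 to 156.4 CPM and separated knockout animals from 115.7 through 127.8 to 141.4 CPM. Most of each range was shared, with 13 of 17 separated animals not above the control median of their genotype. The separated minus control log2 difference was -0.12 (95% interval -0.21 to -0.03; unadjusted p = 0.0159, adjusted p = 0.263). It was -0.178 in cohort 1 and -0.045 in cohort 2, and at P22 over both cohorts it was -0.02 (95% interval -0.12 to 0.09).

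Efna1 had an unadjusted p of 0.0483 in edgeR for separation at P22 (adjusted p = 0.999). Control wildtype animals ran from 5.598 through 9.747 to 12.9 CPM and separated wildtype animals from 9.732 through 10.93 to 14.93 CPM. Control knockout animals ran from 8.672 through 9.962 to 13.7 CPM and separated knockout animals from 8.954 through 11.16 to 12.77 CPM. The groups overlapped, and 18 of 21 separated animals lay above the control median of their genotype. The log2 difference was 0.15 (95% interval 0.01 to 0.30), and at P66 it was -0.04 (95% interval -0.18 to 0.09).

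The other genes had these limits. For genotype, the 95% intervals of Epha4 were -0.12 to 0.08 at P22 and -0.05 to 0.17 at P66, those of Epha7 were -0.16 to 0.10 and -0.10 to 0.24, and those of Efna3 were -0.10 to 0.12 and -0.03 to 0.11. For separation, the intervals of Efna3 were -0.14 to 0.08 and -0.07 to 0.08, and those of Ephb6 were -0.17 to 0.04 and -0.14 to 0.04. Epha5 and Efna4 had the widest intervals, at -0.26 to 0.15 and -0.25 to 0.16 for genotype at P66. The interaction of Efna4 at P66 was 0.36 (95% interval -0.05 to 0.77; adjusted p = 0.794), and that of Epha5 was -0.20 (95% interval -0.62 to 0.21; adjusted p = 0.796).

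**Figure D3:**
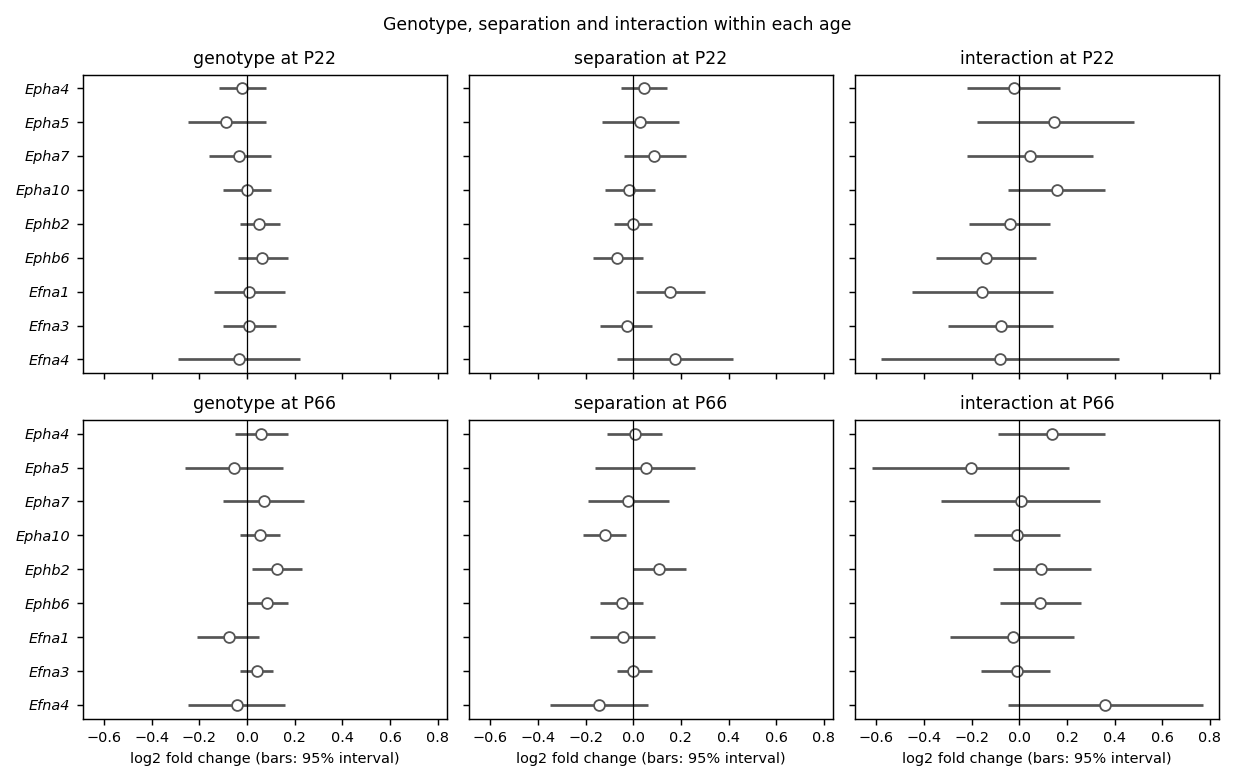
Log2 fold change of the 9 genes (x axis; bars are 95% intervals) for genotype (knockout minus wildtype), separation (separated minus control) and their interaction, at P22 (top) and P66 (bottom); open points did not pass the test. All points are open, and the interaction intervals of Efna4 and Epha5 are the widest at P66.

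The genes also differed in how much they varied between animals of 1 group. After group and cohort means were removed, the SD of log2 CPM was 0.31 for Efna4, 0.274 for Epha5, 0.22 for Epha7 and 0.2 for Efna1, and it was 0.134 to 0.151 for the other 5. The median over all genes was 0.14. Among the well-counted genes Epha5 thus varied most, and 80.8% of all genes varied less.

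This variation was shared between genes. Over the 69 libraries, Pearson's r of the same deviations was 0.78 between Epha4 and Epha7, 0.68 between Epha5 and Epha7, and 0.53 between Epha4 and Epha5. It was 0.62 between Ephb6 and Efna3. Between these sets it was negative, at -0.68 for Epha5 with Ephb6, -0.59 for Epha7 with Ephb6, -0.53 for Epha5 with Efna3 and -0.43 for Epha7 with Efna3, and it was weaker for Epha4, at -0.27 with Ephb6 and -0.22 with Efna3. The 3 neighbouring ligand genes hardly varied together: r was 0.15 for Efna1 with Efna3, 0.03 for Efna1 with Efna4 and -0.01 for Efna3 with Efna4. Over all 36 pairs the median r was -0.03. The points share library depth, base composition and dissection, and the values describe these libraries.

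The 2 sets also differed in base composition. The longest transcripts of Epha5, Epha7 and Epha4 were 40.1%, 41.7% and 45.6% G and C, and those of the other 6 genes were 54.2% to 59.5%. A GC score was made for each library, as the Spearman correlation over 6136 genes of their deviations from their mean level with their transcripts' GC content, centred on its mean. It was added after the correlations were seen. Because it is computed from gene levels, it is no measure of the base composition of the reads, which was not measured. The score correlated with Epha5 at r = -0.79, with Epha7 at -0.56, with Epha4 at -0.42, with Ephb6 at 0.60 and with Efna3 at 0.49 over the 69 libraries. A score made with transcript length in place of GC gave 0.72 for Epha5, -0.64 for Efna3 and -0.57 for Ephb6, and library depth gave at most 0.23 in size for any of the 9. The GC score held 61.9% of the within-group variance of Epha5, 36% of that of Ephb6 and 31% of that of Epha7. Its median was 0.114 at P22 and -0.075 at P66.

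The separated knockout P66 animal numbered 56 of cohort 1 had the highest score, 0.670, the lowest Epha5 level of all libraries, 136.1 CPM, and the highest Ephb6 level, 245.0 CPM. Its Epha4, at 798.1 CPM, and its Epha7, at 320.6 CPM, were the lowest of its group. Without it the age difference of Epha5 was -0.091.

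**Figure D4:**
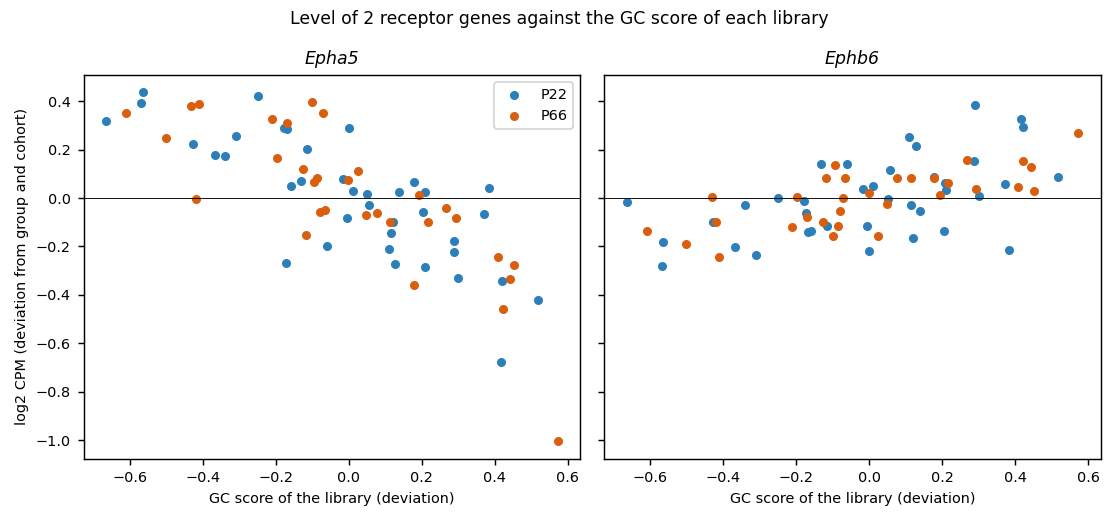
Deviation of log2 CPM from group and cohort means (y axis) of Epha5 (left) and Ephb6 (right) against the deviation of the GC score of the library (x axis), 1 point per library, blue for P22 and orange for P66. Epha5 falls along the score (r = -0.79) and Ephb6 rises (r = 0.60) at both ages.

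With the GC score removed as well, r was 0.72 between Epha4 and Epha7, 0.48 between Epha5 and Epha7, 0.46 between Ephb6 and Efna3 and -0.43 between Epha5 and Ephb6. Other pairs lost more: Epha4 with Epha5 went to 0.35, Epha7 with Ephb6 to -0.39, Epha5 with Efna3 to -0.28, Epha7 with Efna3 to -0.21, and Epha4 with Ephb6 and with Efna3 to -0.02 each. Ephb2, which had r = 0.31 with Epha4 and 0.26 with Epha7 before, had 0.60 and 0.67 after. The age calls of the 6 genes also held in edgeR with the score as a covariate, with Ephb2 at -0.287 (adjusted p = 4e-12), Epha10 at 0.279 (adjusted p = 2.51e-10), Ephb6 at 0.229 (adjusted p = 1.02e-09), Efna3 at 0.153 (adjusted p = 4.86e-05), Efna1 at 0.182 (adjusted p = 0.00206) and Efna4 at -0.207 (adjusted p = 0.0373).

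**Figure D5:**
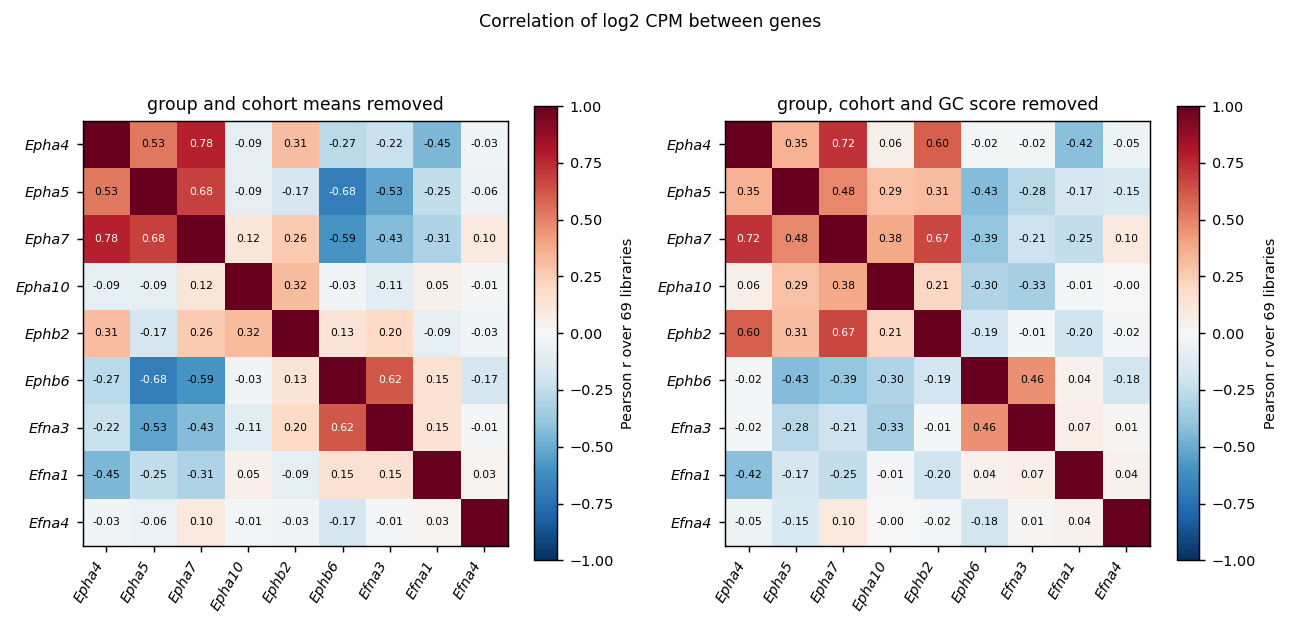
Pearson r of log2 CPM between the 9 genes over 69 libraries, with group and cohort means removed (left) and with the GC score removed too (right). The block of Epha4, Epha5 and Epha7 stands out on the left, and Ephb2 joins Epha4 and Epha7 on the right, at 0.60 and 0.67.

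Levels also followed the marker genes of hippocampal fields and cell types. Epha7 correlated at r = 0.74 with the mean of 6 dentate gyrus markers, and at 0.71 with the GC score removed. Efna3 correlated at 0.63 with 5 CA field markers, and at 0.58 with the GC score removed, but at -0.41 with 3 astrocyte markers, and at -0.33 with the GC score removed. Epha4 correlated at 0.61 with 3 astrocyte markers, and at 0.56 with the GC score removed. Ephb6 was at -0.51 with the dentate gyrus markers. The part of dissection in these values was not tested.

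By the likeness of these deviations over 69 libraries, the genes nearest to each of the 9 were outside the family. They were Atf6 (r = 0.82) and Nckap1 (0.80) for Epha4, Ano3 (0.90) and Kansl1l (0.89) for Epha5, and Btbd3 (0.84) and Jph1 (0.82) for Epha7. They were Ap5z1 (0.66) for Epha10, Cap1 (0.76) and Napa (0.75) for Ephb2, and Clstn1 (0.87) and Cend1 (0.83) for Ephb6. For the ligands they were Cdk2ap1 (0.51) and Fscn1 (0.49) for Efna1, Nat14 (0.84) and Crym (0.84) for Efna3, and Exosc8 (0.52) and Ttc4 (0.51) for Efna4.

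All 9 genes had the same chromosome, start and end in the table as in GENCODE M21 (GRCm38). Epha4 lies at chr1:77367185-77515088 on the minus strand, Epha5 at chr5:84054761-84417382 on the minus strand and Epha7 at chr4:28813131-28967499 on the plus strand. Epha10 lies at chr4:124880899-124917800 on the plus strand, Ephb2 at chr4:136647539-136835988 on the minus strand and Ephb6 at chr6:41605482-41620509 on the plus strand. Counts are sums over each whole gene, so exons and isoforms were not separated.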

How the data were processed

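Hippocampal RNA of 69 mice was sequenced, 1 library per animal. The authors deposited raw, unnormalized read counts for every gene and animal in 1 table. The submitters' processing notes name limma 3.34.9, edgeR, cutadapt 1.16 and FastQC 0.11.4. For the aligner, counting tool, strand setting and genome build, nothing is stated in the sources used here. The table as held ends on chromosome 8, and its incomplete final record (1) was dropped. Of its gene identifiers 99.55% were in GENCODE M21, and 96.5% of those had the same position.

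Samples were grouped by their titles. Counts were fitted in R 4.3.3 with edgeR 4.0.16 (filterByExpr with minimum counts of 10 and 15 in total, TMM, quasi-likelihood test, 1 coefficient per group plus cohort). Each age was fitted alone for genotype, separation and interaction, as the series design states, and all libraries together for age. P-values were adjusted by Benjamini-Hochberg over all genes tested. Intervals are 1.96 SE. CPM use TMM-scaled library sizes summed over the genes held that passed the filter, and log2 CPM a prior count of 2. The code was tested on simulated data. Alternatives were DESeq2 1.42.0, limma-voom 3.58.1, other scalings and filters, each cohort alone, marker scores as covariates and leaving out each library.

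The genes named are the 9 chosen, the family's other genes, up to 4 partner genes with the largest rise and fall among those called, and the 2 genes most alike to each member, of which 1 is not reported here. Members and lists were chosen with earlier results of these data known.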

Additional observations from a re-analysis of the deposited data

Results flagged for a closer look

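Within groups of 4 to 10 animals, 63 combinations of gene and group were checked for an animal far from the others by Dixon's criterion, and 5 met it. By chance about 1 in 20 groups meets it. Ephb2 gave 3 of the 5, all at P22: control wildtype animal 32 of cohort 1 was low at 77.37 CPM (next 91.67), control knockout animal 4 of cohort 1 was high at 122.0 CPM (next 105.0), and separated knockout animal 36 of cohort 2 was low at 75.21 CPM (next 91.96). Efna3 was high in separated knockout animal 23 of cohort 2 at P22, at 184.9 CPM (next 147.3). Efna4 was high in separated knockout animal 2 of cohort 1 at P66, at 2.643 CPM (next 1.891). Of these, control knockout animal 4 was among the 6 libraries far from the median choroid plexus score.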

How the results depend on the processing

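The count of the 9 genes called between the ages was 6. It was 3 in cohort 1 alone, 3 with choroid plexus and oligodendrocyte scores as covariates and 3 in control wildtype libraries alone, and 4 in cohort 2 alone; the fits on 1 cohort or 1 group hold fewer animals. It was 5 with limma-voom, and 7 with the GC score or with dentate gyrus and CA field scores. Leaving out 1 library at a time gave 5 to 6. The sign turned for Epha4 (-0.046) and Efna3 (-0.045) with choroid plexus and oligodendrocyte scores, for Epha7 (-0.010) with dentate gyrus and CA field scores and for Efna4 (0.061) in control wildtype libraries alone; the cause was not tested. Ephb2 and Epha10 were called in all 13 alternatives and in all 69 fits without 1 library. For genotype, separation, their interaction, age by genotype and age by separation, 0 of the 9 were called in every alternative run. Over all genes, the calls for separation at P66 went from 26 to 154 with the GC score, 98 with DESeq2, 41 without the cohort term, 9 without a filter, 7 without the 6 libraries far in choroid plexus score, 2 in cohort 2 alone and 0 in cohort 1 alone or with choroid plexus and oligodendrocyte scores. Calls for genotype at P66 went from 4 to 11 with DESeq2, 96 in cohort 2 alone and 0 in cohort 1 alone. The GC score and the fit without the 6 libraries were added after seeing the data. No paired analysis was possible because animal numbers run separately within each cohort and rearing group, so a shared number names different animals. Efna4 was read with 13 to 44 counts per library, and no detection limit was computed.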
